A study of Mus musculus with 30 samples.

Results

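Pre-B cells with the G158R substitution on both copies of Ikzf3 (homo, Ikzf3m/m) were compared with wild-type pre-B cells (WT, Ikzf3+/+). The comparison rests on RNA sequencing of 3 homo and 3 WT libraries, chosen by their genotype and cell labels, which make up 6 of the 18 RNA libraries and 6 of the 30 samples of the series. All came from bone marrow of C57BL/6 mice, whose ages the labels do not give. Pre-B cells were sorted as B220+ AA4.1+ CD24+ cells without IgM and CD43. Values of 3 pre-B libraries with 1 changed copy (het, Ikzf3+/m) and of WT and homo libraries of the earlier pre-pro B stage are set beside them where they bear on a gene. The labels give replicate numbers but do not say that replicates came from separate mice, so p-values measure the spread between these libraries, which may be technical.

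Ikzf3 encodes Aiolos, a zinc finger protein of the Ikaros family. Family members bind DNA through one group of zinc fingers and pair with each other through another, and they both repress and activate genes during B cell development. Pre-B cells are precursors that have assembled an immunoglobulin heavy chain. They leave a proliferative phase driven by the pre-B cell receptor and interleukin-7, and then rearrange their light chain genes. Ikaros and Aiolos are known for their part in that step.

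The 6 libraries held between 1888871 and 6257527 counts in genes. The shallowest was homo replicate 3, and the others held at least 5556696. Homo replicate 3 also stood apart from the other pre-B libraries on the first principal component (72.1 against −42.1 to 25.7 for the rest, 54.1% of the variance). Actb had 1500 counts there and 2260 to 2433 in the other 5 libraries, so its counts did not grow in proportion to depth. Whether other abundant genes behaved alike was not tested. Y-linked transcripts were present in homo replicates 1 and 3 and absent from homo replicate 2 and all WT libraries. Het replicate 2 held them too. Homo replicate 3 and het replicate 2 were the 2 shallowest pre-B libraries, so Y-linked transcripts and depth partly coincided. Each call between homo and WT pre-B cells below was therefore repeated without homo replicate 3, with library size as a covariate and with a term for Y-linked transcripts. With that last term 25 of 139 named calls were lost (adjusted p from 0.0581 to 0.224), among them those of Hspa1a, Foxo1, Runx1, Mef2c, Klf2, Bank1, Vav1, Fas, Ciita, Mzb1, Il2ra, Ccnb1, Aurkb, Ccnd1, Cdk4, Cdk6, Itga6, Itgb1, Cd44, Sema4d, Plxna2, Oas2, Meis1 and Lck. Among the libraries without Y-linked transcripts, 1 of them homo, 7 were lost.

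Of 11411 genes tested by edgeR's quasi-likelihood test, 1811 (15.9%) passed an adjusted p of 0.05 (Benjamini-Hochberg) and are spoken of as called. Of these, 847 (7.42%) were higher in homo and 964 (8.45%) were lower. All 3 homo libraries lay above all 3 WT libraries for 20.4% of the genes tested and below them for 22.2%. The log2 fold change was at least 1 in size for 381 genes called higher and 539 called lower, and at least 3 for 54 and 71. The groups did not overlap for 827 genes called higher and 962 called lower, against 42.5% of all genes tested. All 1811 calls kept their direction in every alternative fit in which the gene was tested. The number of calls was less stable: it was 1055, 1068 and 1157 without WT replicate 1, 2 or 3, 2097 without homo replicate 3 and 3456 with library size as a covariate. Fewer cells of a kind and less RNA per cell cannot be told apart in sorted bulk samples.

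**Figure D1:**
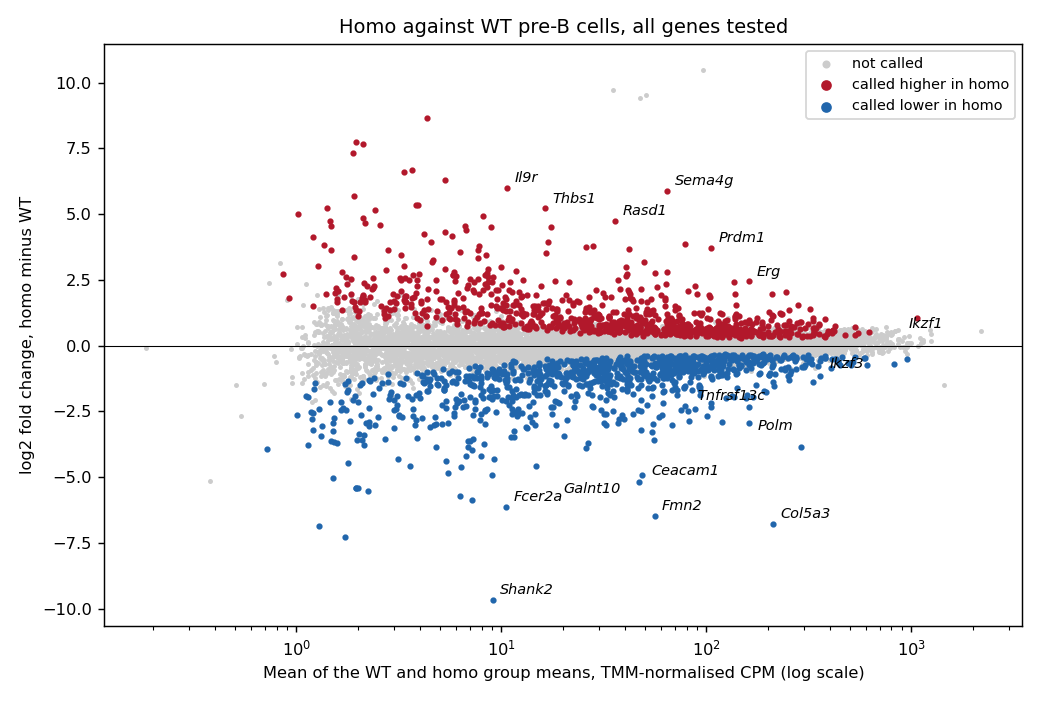
Log2 fold change (homo minus WT, vertical axis) of the 11411 genes tested in pre-B cells against the mean level (horizontal axis, TMM-normalised CPM, log scale), with 847 genes called higher in red and 964 called lower in blue. Ikzf1 and Ikzf3 lie near 0, Prdm1 and Sema4g far above and Polm, Fmn2 and Col5a3 far below, and the 4 uncalled points above 9 are the Y-linked genes Ddx3y, Eif2s3y, Kdm5d and Uty.

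Transcripts of the Ikaros family itself were not called. Ikzf3 stood at 545, 549 and 517 CPM (counts scaled to library size after TMM normalisation, the level used throughout) in WT replicates 1 to 3 and at 491, 460 and 612 in homo (log2 −0.0465 ± 0.138 (SE), adjusted p = 0.853). The homo values lay on both sides of the WT values, and replicate 3 was the highest. Ikzf3 was called lower in 3 of 16 alternatives. With a covariate for library size its log2 change was −0.17 (adjusted p = 0.0371), and it was also called without the 2 shallowest pre-B libraries. Its adjusted p in the 16 alternatives lay between 0.0265 and 0.978. Ikzf1, which encodes Ikaros, stood at 777, 811 and 756 CPM in WT and at 793, 773 and 1257 in homo (adjusted p = 0.392). Without homo replicate 3 the log2 difference of Ikzf1 was 0.000447, and its sign held in 14 of 16 alternatives, that of Ikzf3 in 15. Ikzf5, encoding Pegasus, had a log2 difference of −0.19 (adjusted p = 0.281), and Ikzf2, encoding Helios, was between 0.619 and 3.59 CPM in the 9 libraries (log2 0.32, adjusted p = 0.721). Ikzf4 had 13 counts over all 9 pre-B libraries and was not tested. The substitution changes an amino acid, so the amount of Ikzf3 RNA is no check of the genotype labels.

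Genes that define pre-B cells were present in both groups. Pax5, the factor that holds cells in the B lineage, had 207, 212 and 200 CPM in WT and 179, 174 and 178 in homo (log2 −0.22 ± 0.09, adjusted p = 0.123). All 3 homo values lay below the WT values, but the difference did not pass the threshold. Rag1, which cuts receptor genes, stood at 1084, 1115 and 984 CPM in WT and at 1198, 1107 and 1960 in homo (adjusted p = 0.223), with replicate 3 far above the rest. Of 12 tested pre-B marker genes 2 were called, near the share of 15.9% over all genes tested. With the term for Y-linked transcripts 0 were called higher and 1 lower. Il2ra, the CD25 marker of small pre-B cells, rose from 251, 274 and 268 to 398, 346 and 530 CPM (1.60-fold). Ms4a1, which encodes CD20 and appears as B cells mature, fell from 139, 115 and 96.6 to 54.1, 33.1 and 26.3 CPM (2.99-fold). The Il2ra call was lost without each WT replicate in turn, among others, and held in 10 of 16 alternatives (adjusted p from 0.000527 to 0.139).

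Prdm1 and Sema4g rose and Polm and Tnfrsf13c fell, each well beyond the spread between libraries. Prdm1 encodes Blimp-1, the repressor that drives plasma cell formation. Its level was 15.7, 15.4 and 13.3 CPM in WT, 112, 126 and 133 in het cells and 181, 157 and 253 in homo. No homo library came near the WT range, and the 3 het libraries lay between both groups. The homo level was 13.2-fold that of WT (log2 3.72 ± 0.19, adjusted p = 6.54e-06).

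Sema4g, a gene for a membrane-bound semaphorin, had 2.54, 1.96 and 1.93 CPM in WT, 120, 62.7 and 93.7 in het cells and 162, 139 and 79.0 in homo. It was 59.3-fold higher in homo than in WT (log2 5.89 ± 0.38, adjusted p = 1.48e-05). The het and homo ranges overlapped, and their difference was not called (log2 0.48, adjusted p = 0.544).

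Polm encodes polymerase mu, which fills in ends during the joining of immunoglobulin gene segments. It stood at 297, 294 and 267 CPM in WT, 98.8, 64.6 and 82.5 in het cells and 42.9, 40.8 and 23.9 in homo. The 3 genotypes did not overlap, and homo was 7.66-fold below WT (log2 −2.94 ± 0.21, adjusted p = 2.30e-05) and also below het (log2 −1.14, adjusted p = 0.0213). Tnfrsf13c encodes the receptor for the B cell survival factor BAFF. Its levels of 142, 140 and 136 CPM in WT, 75.9, 88.3 and 59.7 in het cells and 29.8, 22.7 and 21.0 in homo also fell into 3 ranges without overlap. It was 5.57-fold lower in homo than in WT (log2 −2.48 ± 0.18, adjusted p = 2.30e-05) and log2 −1.57 below het (adjusted p = 0.00315). The calls of these 4 genes against WT held in 16 of 16 alternatives.

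**Figure D2:**
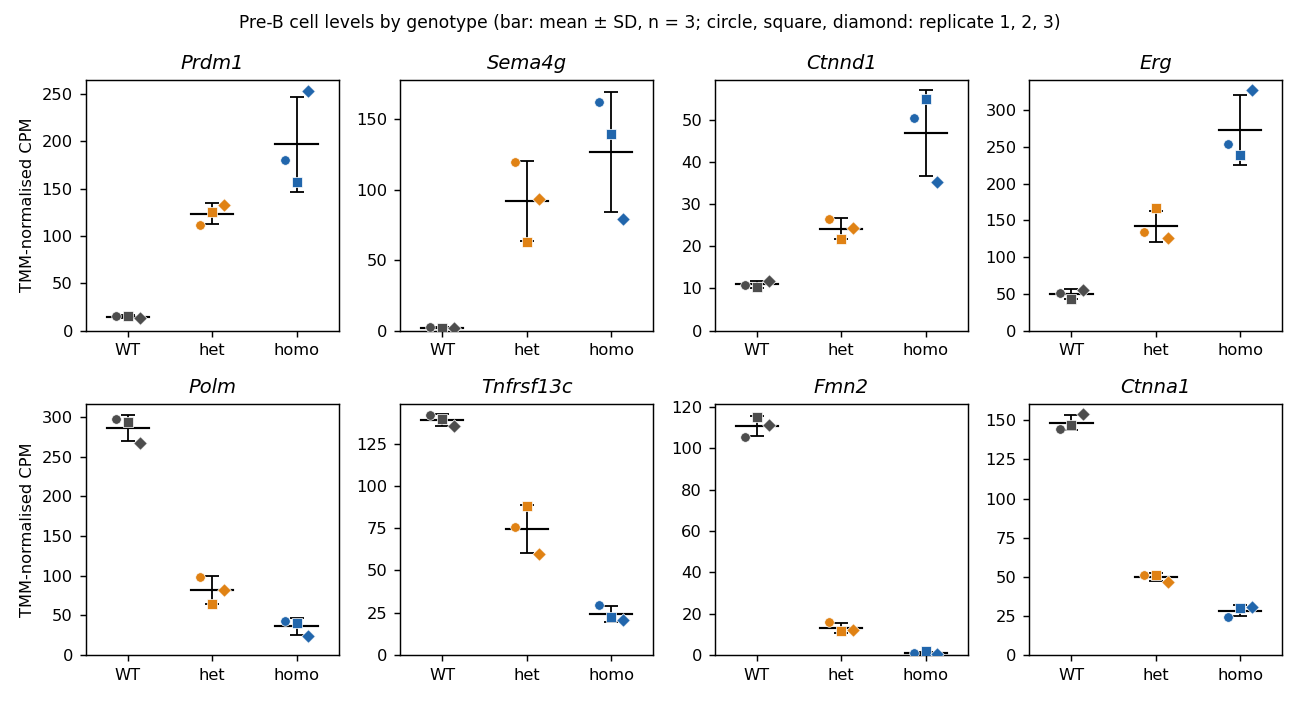
Levels (vertical axes, TMM-normalised CPM, from 0) of 8 genes in the WT, het and homo pre-B libraries, with 1 point per library and mean ± SD (n = 3). Prdm1, Sema4g, Ctnnd1 and Erg were higher in homo, Polm, Tnfrsf13c, Fmn2 and Ctnna1 were lower, and for each gene the 3 homo points lie outside the WT range.

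The largest rises, among genes with at least 5 CPM in the higher group and no overlap, were of genes barely present in WT. Ppbp, a platelet chemokine gene, had no counts in WT and 13.4, 5.55 and 7.18 CPM in homo, at least 55.4-fold higher if WT is set to a floor of 3 counts over the group. Pamr1 had 1 count in WT and 120 in homo (pooled ratio 150, 95% counting interval 26.4 to 5975), and C4bp, the gene of a complement inhibitor, 1 and 116 (145, 25.5 to 5777). Olfm1 had 2 counts and 149 (93.2, 25.3 to 776), and F830016B08Rik 3 and 111 (46.3, 15.4 to 228). Such intervals cover counting error only.

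Il9r, a receptor gene of the interleukin-2 receptor family, was at 0.477, 0.178 and 0.321 CPM in WT, 26.1, 12.2 and 20.3 in het cells and 30.5, 24.4 and 8.38 in homo. Het and homo overlapped there, and both were far above WT. Rasd1, which encodes a small GTPase, went from 3.18, 2.498 and 2.09 CPM in WT over 24.1, 22.4 and 36.6 in het to 89.3, 62.1 and 56.9 in homo (26.9-fold), in 3 separate ranges. Dusp4, a phosphatase of MAP kinases, was at 1.43, 1.78 and 1.28 CPM in WT and at 52.2, 27.4 and 20.4 in homo, and het stood between them at 8.50, 5.36 and 7.92. Thbs1, the thrombospondin-1 gene, rose 37.5-fold, Etl4 30.6-fold, Ak8 23.2-fold, Podxl2 22.8-fold and Gsg1l 21.0-fold. Hspa1a, an inducible heat shock gene, also belongs here, but rested on few counts: 2.05 and 2.47 CPM in homo replicates 1 and 2 and 18.6 in replicate 3. Its call held in 10 of 15 alternatives (adjusted p from 7.31e-05 to 0.0876), and was lost without each WT replicate in turn.

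Among the genes that fell most, several were well expressed in WT and almost absent in homo. Col5a3, a fibrillar collagen gene, had 503, 416 and 340 CPM in WT, 35.1, 24.4 and 60.3 in het cells and 3.94, 3.54 and 4.19 in homo (110-fold lower, log2 −6.78 ± 0.38, adjusted p = 8.50e-06). Fmn2, the gene of an actin-nucleating formin, had 106, 115 and 111 CPM in WT, 15.8, 11.7 and 11.9 in het cells and 0.947, 1.70 and 0.599 in homo (88.6-fold, log2 −6.47 ± 0.25, adjusted p = 1.64e-06). In both genes the het level lay far from either homozygous group, with log2 differences of −3.38 and −3.07 from WT and of −3.40 and −3.40 from het to homo. Shank2, a scaffold gene known from synapses, had 19.4, 18.4 and 16.7 CPM in WT and no counts in homo, at least 87.7-fold lower if homo is set to the same floor.

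Galnt10, the gene of an enzyme that starts O-linked glycans, fell from 92.8, 96.7 and 86.9 CPM to 2.05, 3.54 and 0.599 (36.8-fold). Ceacam1, which encodes an adhesion molecule with inhibitory signalling motifs, fell from 90.1, 91.5 and 99.5 to 1.10, 4.01 and 5.99 CPM (30.2-fold). Neither gene's groups overlapped, which was a condition for being named here. Fcer2a, encoding the low-affinity IgE receptor CD23 of mature B cells, fell from 24.8, 21.2 and 16.5 CPM to 0.473, 0.154 and 0 (70.3-fold). Il6ra, the interleukin-6 receptor gene, had 222 counts in WT and 3 in homo (pooled ratio 59.2, 20.0 to 289), and Col25a1 250 and 3 (66.7, 22.6 to 325). Zscan12 (30.5-fold), Etnk2 (28.6-fold), Mx2 (24.7-fold), Rgs10 (24.0-fold), Krt222 (23.6-fold), Klc3 (20.9-fold) and Arc (19.7-fold) complete the group. All 15 of these calls held in 16 of 16 alternatives.

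Het values shared the WT libraries with the homo comparison and are given for position only. Of the genes called higher in homo, 820 of 847 also had a log2 difference above 0 in het, and 277 were called there, while 936 of 964 lower genes were below 0 in het and 345 were called. Het against WT called 705 genes in all (6.18%), 2.8% higher and 3.38% lower. Homo and het were themselves compared, with 216 of 11411 genes called (1.89%), 0.806% higher and 1.09% lower. Where a gene was called both against WT and against het, homo was further from WT than het for 86 genes called higher and 111 called lower. For 1 such higher gene homo was nearer to WT than het. Genes not called between homo and het are not in these counts, whichever group lay further from WT.

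Ikaros binding had been mapped by ChIP-seq in pre-B cells grown from bone marrow on stromal cells with cytokines, with 1 library per genotype and antibody and so with no replicate check. The deposited lists hold 3683 Ikaros peaks in WT cells and 8609 in homo cells, and 431 and 24 Aiolos peaks. A WT Ikaros peak lay in or within 10 kb of 21.4% of the genes called higher (181 of 846 with a position, exact 95% interval 18.7 to 24.3) and 19.9% of those called lower (191 of 961, 17.4 to 22.5). The share among genes not called was 13.0% (12.3 to 13.7). With the homo list the shares were 39.0%, 41.1% and 28.5%. Genes called higher spanned more of the genome (median 39375 bases) than genes called lower (25202) or not called (21548), and longer genes more often had a peak. In genes of up to 10 kb the WT list gave 15.2%, 15% and 8.5%, and in genes over 100 kb 34.5%, 34.8% and 33.3%. The homo list gave 27.5%, 35.3% and 22.1% in the short genes and 61.4%, 61.3% and 52.2% in the long ones. WT Aiolos peaks lay near 1.18% of higher, 0.520% of lower and 0.992% of uncalled genes.

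**Figure D3:**
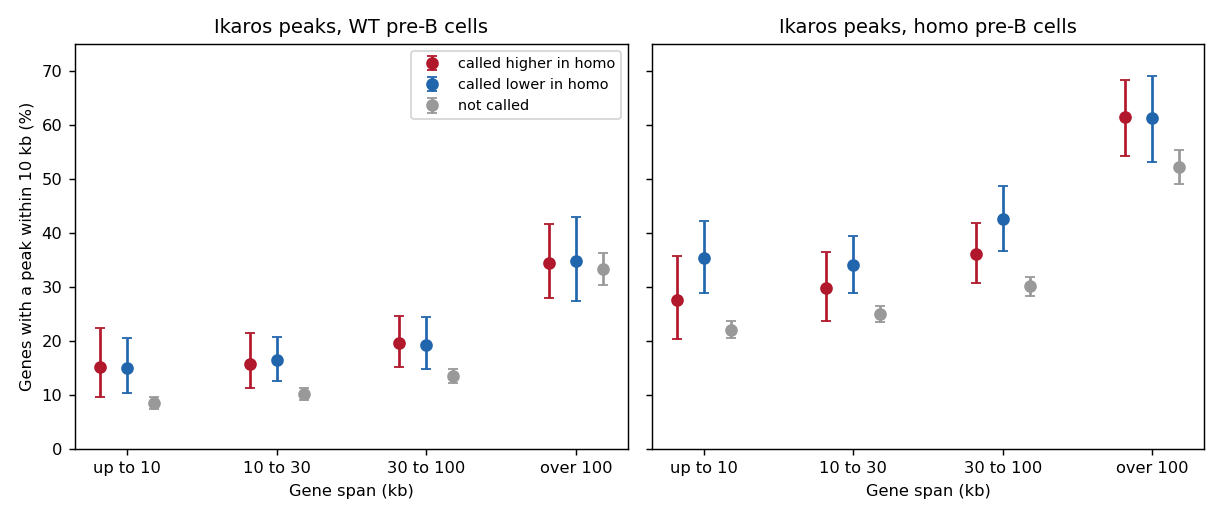
Share of genes with a deposited Ikaros peak in or within 10 kb of the gene (vertical axis, percent) by gene span (horizontal axis, kb) in WT and homo pre-B cells, for genes called higher, called lower and not called, with exact 95% binomial intervals. In the WT list the called genes lie above the uncalled ones in each span class up to 100 kb, and the 3 classes of genes lie at 33.3% to 34.8% above that.

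At single genes the homo list held Ikaros peaks inside Prdm1, Sema4g and Polm where the WT list held none within 10 kb, and neither list held one near Tnfrsf13c. The homo list is the longer one, and 30.3% of all genes tested had a homo peak against 14.2% with a WT peak. The authors' fold over background was 3.17 at Prdm1, 5.57 at Sema4g and 3.52 at Polm. The −log10 q-value was 1.38 at Prdm1, near the list's minimum of 1.11, 9.76 at Sema4g and 2.33 at Polm. Fmn2 had a peak inside the gene in both lists, with folds of 6.99 in WT and 9.58 in homo, as did Shank2 (4.52 and 4.70). Ikzf3 had 3 peaks in the homo list and 0 in the WT list.

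Ikaros peaks covered part of the 300 bases around an annotated start site for 0.760% of higher, 0.980% of lower and 0.683% of uncalled genes in the WT list. In the homo list the shares were 3.5%, 7.98% and 5.92%, so the higher genes had the smallest. Among the listed pathway genes called, 4 had such a peak in both lists, and their windows are shown because they hold both an annotated start and a peak in a gene whose RNA changed. RNA was counted per gene, so which start was used is not known. The Ctnnd1, Cd22 and Ifit2 windows lie inside the gene, downstream of its 5′ end. They are the B cell inhibitory receptor gene Cd22 (chr7:30878979-30879278), the hyaluronan receptor gene Cd44 (chr2:102901616-102901915), the p120 catenin gene Ctnnd1 (chr2:84650691-84650990), all 3 on the minus strand, and the interferon-induced gene Ifit2 (chr19:34550838-34551137, plus strand). Sequences are from RefSeq on GRCm38.p6, read 5′ to 3′ on the gene's strand. Capitals mark GGGAA, the core of the DNA site that Ikaros proteins bind, or TTCCC, the same core on the other strand.
Cd22: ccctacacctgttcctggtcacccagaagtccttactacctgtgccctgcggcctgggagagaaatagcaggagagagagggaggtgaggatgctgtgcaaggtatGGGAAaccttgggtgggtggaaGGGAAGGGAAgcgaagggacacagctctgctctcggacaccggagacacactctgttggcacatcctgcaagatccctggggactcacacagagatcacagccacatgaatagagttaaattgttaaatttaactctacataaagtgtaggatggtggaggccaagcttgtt
Cd44: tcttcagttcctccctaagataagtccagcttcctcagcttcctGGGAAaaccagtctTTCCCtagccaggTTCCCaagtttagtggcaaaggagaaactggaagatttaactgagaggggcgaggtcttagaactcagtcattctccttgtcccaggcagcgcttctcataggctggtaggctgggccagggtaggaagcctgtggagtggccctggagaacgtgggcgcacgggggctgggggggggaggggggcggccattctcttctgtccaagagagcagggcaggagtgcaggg
Ctnnd1: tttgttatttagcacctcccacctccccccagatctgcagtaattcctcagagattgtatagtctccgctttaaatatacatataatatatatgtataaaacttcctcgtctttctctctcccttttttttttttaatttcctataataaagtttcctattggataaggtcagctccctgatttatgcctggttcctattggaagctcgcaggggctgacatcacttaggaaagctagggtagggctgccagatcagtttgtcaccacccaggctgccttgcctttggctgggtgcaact
Ifit2: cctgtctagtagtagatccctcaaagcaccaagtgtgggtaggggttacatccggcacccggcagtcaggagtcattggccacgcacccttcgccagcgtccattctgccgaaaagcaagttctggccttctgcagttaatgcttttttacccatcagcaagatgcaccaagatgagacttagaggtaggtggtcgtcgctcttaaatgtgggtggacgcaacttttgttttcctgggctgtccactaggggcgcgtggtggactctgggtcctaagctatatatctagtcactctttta
Cd22 and Cd44 each held 3 matches, none of which overlap, and Ctnnd1 and Ifit2 held 0. Of 32851 RefSeq windows of this length 62.7% held at least 1 match and 8.83% held 3 or more. The authors' peak fold was 21.8 in WT and 18.7 in homo at Cd22, 5.35 and 6.74 at Cd44, 8.04 and 15.6 at Ctnnd1, and 3.70 and 3.14 at Ifit2. Cd22, Cd44 and Ctnnd1 rose in homo and Ifit2 fell, with values given among their groups below.

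**Figure D4:**
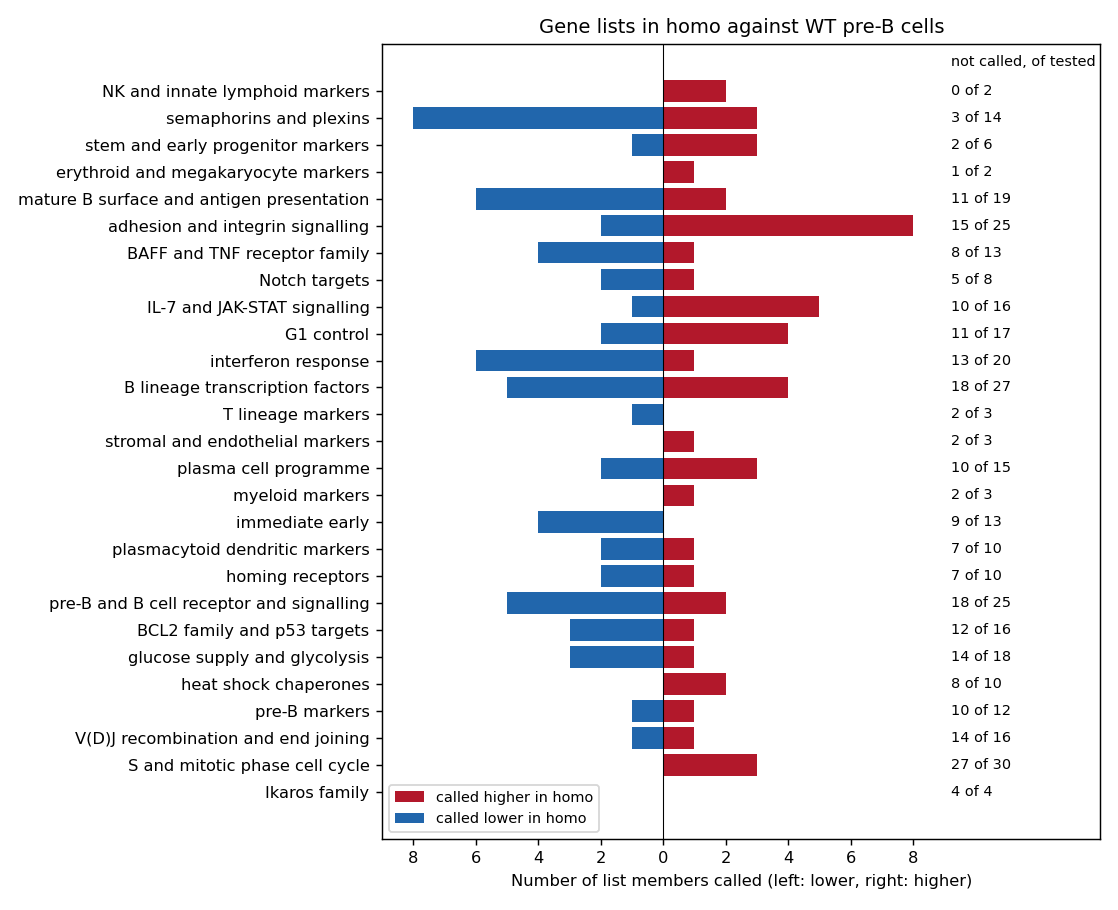
Number of members of each gene list called higher (right) or lower (left) in homo against WT pre-B cells (horizontal axis), with the number not called and the number tested at the right of each row. Adhesion genes lean to the right, with 8 higher and 2 lower, and semaphorins and plexins to the left, with 3 higher and 8 lower.

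Over all genes tested 7.42% were called higher and 8.45% lower, and each list count is to be read against these shares. The term for Y-linked transcripts moved several of the list counts. It gave 1 higher and 5 lower for receptor signalling, 3 and 1 for IL-7 signalling, 2 and 1 for G1 control, 5 and 2 for adhesion, 1 and 0 for heat shock chaperones, 0 and 1 for pre-B markers and 0 and 0 for T lineage markers. In libraries without Y-linked transcripts receptor signalling had 2 higher and 12 lower and S and M phase 7 and 0.

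B lineage transcription factors changed in both directions: 4 of 27 rose and 5 fell, with a median log2 difference of 0.0222 beside 0.0182 over all genes tested. With library size as a covariate 6 rose and 10 fell, and with the term for Y-linked transcripts 1 and 4. The median was below 0 in those fits, without homo replicate 3 and in libraries without Y-linked transcripts (−0.0990 to −0.152). Erg, an ETS factor of stem and progenitor cells, rose from 51.5, 42.8 and 54.9 to 254, 239 and 327 CPM (5.46-fold, log2 2.45 ± 0.17, adjusted p = 1.91e-05), with het between at 134, 166 and 127. Foxo1, a driver of Rag expression (1.38-fold), Runx1 (1.34-fold) and Mef2c (1.79-fold) rose by less. Spib, an ETS factor of B and plasmacytoid dendritic cells, fell from 571, 579 and 543 to 366, 328 and 314 CPM (1.68-fold). Bcl11a, which early B cell development needs, fell 2.04-fold, and Klf2, a factor of quiescence and migration, 1.41-fold.

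Gfi1 and Id3 fell in homo and were already low in het. Gfi1, a repressor in early lymphoid cells, had 49.1, 37.3 and 43.3 CPM in WT, 15.6, 13.4 and 15.8 in het cells and 15.8, 22.8 and 8.38 in homo. Id3, an inhibitor of E proteins, had 45.6, 34.8 and 32.8 CPM in WT, 7.11, 5.85 and 10.9 in het cells and 8.99, 13.3 and 5.39 in homo. In both genes het and homo overlapped, and their differences of log2 0.16 and 0.29 were not called (adjusted p = 0.907 and 0.835). Ebf1, Tcf3, Irf4 and Bach2 were not called (adjusted p from 0.225 to 0.794). The calls of Runx1, Mef2c and Klf2 held in 11 of 16 alternatives and that of Foxo1 in 9, and all 4 were lost without WT replicate 1, without WT replicate 2 and with the term for Y-linked transcripts. Mef2c, at 310, 336 and 567 CPM in homo, had a log2 change of 0.52 without homo replicate 3 against 0.84 with it.

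Of 25 tested genes of the pre-B and B cell receptor and its signalling, 2 rose and 5 fell (median log2 −0.0550). Fyn, a Src family kinase, rose from 84.2, 81.5 and 88.0 to 174, 160 and 170 CPM (1.98-fold), and the adaptor gene Bank1 rose 2.17-fold. Those that fell were the phosphatase genes Ptpn6 (1.32-fold) and Inpp5d (1.42-fold), the adaptors Pik3ap1 (379, 397 and 362 to 228, 226 and 219 CPM, 1.69-fold) and Dapp1 (1.73-fold), and Vav1 (1.40-fold). Receptor components themselves were not called, among them Vpreb1 (log2 −0.0302, adjusted p = 0.95), Igll1 (0.21, 0.412) and Cd79a (−0.23, 0.167). With library size as a covariate 3 rose and 12 fell. The calls of Bank1 and Vav1 held in 10, of Ptpn6 in 13 and of Inpp5d in 14 of 16 alternatives, and each was lost without WT replicate 2.

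In V(D)J recombination and end joining 1 of 16 genes rose and 1 fell, near the shares of 7.42% and 8.45% over all genes tested. Xrcc5, encoding the Ku80 subunit that holds broken ends, rose from 32.9, 30.3 and 32.8 to 46.2, 49.9 and 58.1 CPM (1.59-fold, called in 14 of 16 alternatives and lost without WT replicate 2), and Polm was the gene that fell. Rag2, Dntt and Lig4 were not called (adjusted p = 0.452, 0.851 and 0.148). Without homo replicate 3 the counts were 2 and 2, and with library size as a covariate 3 and 4.

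Of 13 tested genes of the TNF receptor family 1 rose, 4 fell and 8 were not called, with a median log2 difference of −0.61, and of −0.25 with the term for Y-linked transcripts. Beside Tnfrsf13c, those that fell were Cd40, the receptor for T cell help, Tnfrsf1b and Traf5. Cd40 fell from 30.7, 23.9 and 25.04 to 5.21, 2.62 and 0 CPM (8.03-fold), with het between at 13.5, 11.2 and 9.64. Tnfrsf1b fell 2.07-fold and the adaptor gene Traf5 1.87-fold. The death receptor gene Fas was the member that rose, from 1.59, 2.68 and 3.05 to 6.94, 4.47 and 5.99 CPM, and its call held in 10 of 16 alternatives (lost without WT replicate 1, WT replicate 2 or homo replicate 1, with the term for Y-linked transcripts, adjusted p = 0.113, and in libraries without them, 0.182). With library size as a covariate 3 rose and 5 fell.

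Of 19 tested genes for mature B surface molecules and antigen presentation, 2 rose and 6 fell (median log2 −0.13). Cd22 rose from 257, 253 and 263 to 458, 413 and 481 CPM (log2 0.81 ± 0.11, adjusted p = 0.000667), and Cd86, a costimulatory ligand, from 5.08, 5.18 and 4.17 to 14.04, 12.9 and 14.96. Falls were those of Fcer2a and Ms4a1, of the complement regulator gene Cd55 (111, 97.8 and 93.9 to 43.7, 27.6 and 48.5 CPM), of Cd52 (2.04-fold), of the class II co-chaperone gene H2-Oa (4.21-fold) and of Ciita (1.70-fold). Ciita encodes the master activator of class II genes, yet H2-Aa, H2-Ab1 and Cd74 were not called (adjusted p from 0.251 to 0.712). Its own call held in 10 of 16 alternatives and was lost without each WT replicate in turn and without homo replicate 2.

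Of 15 tested genes of the plasma cell programme, Prdm1 and 2 others rose, 2 fell and 10 were not called (median log2 0.14). Xbp1, the secretory pathway regulator, rose from 80.7, 81.5 and 76.4 to 126, 115 and 120 CPM (1.52-fold), and Mzb1, an endoplasmic reticulum chaperone gene, rose 1.28-fold. Sdc1, which encodes the plasma cell marker CD138 and is also found on B cell precursors, fell from 108, 96.2 and 90.1 to 15.9, 13.6 and 4.19 CPM (7.81-fold), and Slamf7 fell 1.42-fold. Jchain was low in both groups (1.27, 2.68 and 5.30 against 1.42, 1.08 and 0.599 CPM, adjusted p = 0.203). The calls of Mzb1 (7 of 16 alternatives) and Slamf7 (10) were lost without each WT replicate and without homo replicates 1 and 2.

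In IL-7 and JAK-STAT signalling 5 of 16 genes rose and 1 fell (median log2 0.21). Il7r itself had 452, 541 and 483 CPM in WT and 484, 517 and 1385 in homo, so that the higher group mean came from replicate 3, and it was not called (adjusted p = 0.249). Il2rg, the shared chain that pairs with it, rose from 99.6, 101 and 104 to 151, 136 and 163 CPM (1.47-fold). Il2ra rose as given above, as did the feedback inhibitor gene Socs2 (27.8, 26.9 and 40.3 to 52.7, 75.4 and 92.2 CPM) and Socs3. Stat5a, a transducer of IL-7 signals, fell from 60.1, 52.1 and 57.6 to 30.6, 40.8 and 24.5 CPM (1.73-fold). The calls of Socs3 (11 of 16 alternatives) and Stat5a (12) were lost without WT replicate 1, WT replicate 3 or homo replicate 1.

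Of 30 tested genes of S and M phase 3 rose and 0 fell, near the share of 7.42% called higher over all genes, and 27 were not called. Their median log2 difference was 0.38. The sum of the list was 8263 to 8864 CPM in WT and 9554, 9434 and 16360 in homo replicates 1 to 3, so replicate 3 held the large rise. Without that library the median was 0.19 with 4 genes called higher, where 998 of 11587 genes were called higher in all. With library size as a covariate it was 0.21 with 17 of 30 called higher, where 1697 of 11411 were in all. In that fit the list held a larger share of genes called higher than all genes tested did. Tyms, which makes thymidylate for DNA, rose from 47.7, 48.9 and 50.7 to 74.5, 70.3 and 82.6 CPM (1.54-fold). Ccnb1 (1.71-fold, 10 of 16 alternatives) and Aurkb (1.29-fold, 8 of 16) were the others, and both calls were lost without each WT replicate in turn.

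Among 17 genes of G1 control 4 rose and 2 fell. Ccnd2, the D-type cyclin that pre-B cells use in response to growth signals, rose from 95.6, 96.9 and 132 to 137, 249 and 217 CPM, and Cdk6, its partner kinase, 1.45-fold. Cdkn2a, the locus of the p16 and Arf tumour suppressors, went from 0.318, 0.357 and 1.45 to 5.52, 4.16 and 2.39 CPM, and Cdk4 rose 1.28-fold. Btg2, an antiproliferative gene, fell from 347, 317 and 292 to 133, 110 and 84.4 CPM (2.89-fold), with het between at 162, 140 and 190, and Ccnd1 fell 1.81-fold. The WT and homo ranges did not overlap for these 6 genes, as for 827 of 847 genes called higher and 962 of 964 called lower. Myc stood at 25.3, 30.2 and 38.7 CPM in WT and at 26.5, 50.1 and 56.3 in homo, which overlap (adjusted p = 0.278). The calls of Ccnd2 (13 of 16 alternatives), Cdk6 (10), Cdk4 (5) and Ccnd1 (5) were lost without WT replicate 1 and without WT replicate 2, and those of Cdk4 and Ccnd1 also without homo replicate 1, 2 or 3.

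Adhesion and integrin signalling genes more often rose than fell, with 8 of 25 higher, 2 lower and a median log2 difference of 0.14. The catenins moved in opposite directions. Ctnnd1, whose protein stabilises cadherins, rose from 10.8, 10.4 and 11.9 over 26.6, 21.7 and 24.3 in het to 50.5, 55.0 and 35.3 CPM in homo (4.34-fold, log2 2.12 ± 0.18, adjusted p = 6.15e-05). Ctnna1, which encodes the alpha-catenin that links cadherins to actin, fell from 145, 147 and 154 over 51.0, 51.2 and 46.9 to 24.1, 29.9 and 30.5 CPM (5.32-fold, log2 −2.41 ± 0.12, adjusted p = 6.54e-06). Both genes had 3 ranges without overlap. Ctnnb1, the beta-catenin gene, was not called (log2 0.16, adjusted p = 0.460).

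Integrin genes that rose were Itgam (50.2, 54.4 and 52.2 to 147, 109 and 110 CPM, 2.34-fold), Itgb3 (2.23-fold), Itgb1 (1.41-fold) and Itga6 (1.27-fold). Cd44 rose from 205, 218 and 230 to 298, 266 and 344 CPM. The focal adhesion gene Parvb rose 2.71-fold, and Vcl, the vinculin gene, fell 1.60-fold. Itga4 and Itgal, the integrins through which lymphocytes hold on to stroma and vessels, were not called (adjusted p = 0.758 and 0.714). The calls of Cd44 (10 of 16 alternatives), Itgb1 (9), Itga6 (6) and Vcl (10) were lost without each WT replicate in turn and without homo replicate 1, and that of Itga6 also without homo replicate 3.

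All 7 plexin genes tested, which encode receptors of semaphorins, fell. Of 14 tested semaphorin, plexin and neuropilin genes 3 rose and 8 fell, with a median log2 difference of −0.97. Plxnd1 went from 80.2, 70.8 and 75.5 CPM in WT to 28.1, 47.2 and 18.6 in homo and Plxnb2 from 157.9, 157 and 166 to 71.9, 94.0 and 49.7. Plxna1 (2.02-fold), Plxna2 (2.33-fold), Plxna3 (2.11-fold), Plxnb1 (9.58-fold, from at most 3.03 CPM) and Plxnc1 (1.99-fold) were lower as well. Among the ligands Sema4g, Sema6d (9.49-fold) and Sema7a (4.23-fold) rose, and Sema4d, encoding CD100, fell 1.30-fold. The counts were 3 and 8 also without homo replicate 3 and with library size as a covariate, and 3 and 6 with the term for Y-linked transcripts and in libraries without them (median −0.79 and −0.57). Plxna2 (8 of 15 alternatives) and Sema4d (7 of 16) lost their calls without WT replicate 1, WT replicate 3 or homo replicate 1, among others.

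Of 10 tested genes for receptors that guide cells out of the marrow and into lymph nodes, 1 rose and 2 fell, and those that fell were Ccr7 and S1pr1. Ccr7, the receptor for lymph node chemokines, fell from 91.5, 83.9 and 86.7 to 49.4, 53.5 and 28.7 CPM, and S1pr1, the receptor for egress into blood, from 112, 96.0 and 96.2 to 57.9, 36.8 and 41.3. Neither pair of groups overlapped, as in nearly all called genes. Cxcr4, which retains cells in the marrow, was not called (log2 0.45, adjusted p = 0.304).

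Of 18 tested genes for glucose supply and glycolysis 1 rose and 3 fell, beside 7.42% and 8.45% of all genes tested. Pdk1, which keeps pyruvate from the mitochondria, rose from 35.7, 31.9 and 34.5 to 61.4, 67.6 and 64.6 CPM (1.89-fold). Insr, the insulin receptor gene, fell 1.77-fold, Hk1, a hexokinase gene, 2.75-fold, and Cnr2, the cannabinoid receptor gene, from 70.7, 52.1 and 47.2 to 8.52, 7.55 and 4.19 CPM. The glucose transporter gene Slc2a1 was not called (adjusted p = 0.800). With library size as a covariate 3 rose and 5 fell.

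The apoptosis genes that changed were Pmaip1, which rose, and Bak1, Bmf and Zmat3, which fell, of 16 tested. Of all genes tested, 7.42% rose and 8.45% fell. Bmf, which promotes apoptosis in lymphocytes, fell from 220, 232 and 202 to 65.5, 62.7 and 35.9 CPM (3.87-fold), and Bak1, an effector of mitochondrial permeability, from 85.5, 87.8 and 108 to 45.3, 53.3 and 35.9. Pmaip1, encoding Noxa, rose from 8.58, 6.96 and 6.90 to 20.0, 18.3 and 26.9 CPM (2.81-fold). In each of these genes the groups lay apart, as in nearly all called genes. Bcl2 and Bcl2l11 were not called (adjusted p = 0.243 and 0.0522). Without homo replicate 3 the counts were 3 higher and 4 lower.

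Interferon-induced genes had 1 of 20 members higher and 6 lower, with a median log2 difference of −0.40. Mx1 fell from 12.6, 12.3 and 15.3 to 1.42, 0.154 and 1.197 CPM (15.6-fold), and Mx2, Ifit2 (28.6, 30.3 and 29.1 to 9.15, 12.3 and 10.8 CPM), Oas2, Oas1a and Isg20 fell too. Gbp2, a guanylate-binding protein gene, rose from 11.8, 14.8 and 17.8 to 47.0, 46.2 and 67.6 CPM (3.55-fold). Isg15, Irf7, Ifit1 and Rsad2, which respond to the same cytokines, were not called (adjusted p from 0.409 to 0.919). The Oas2 call held in 15 of 16 alternatives and was lost with the term for Y-linked transcripts (adjusted p from 2.98e-05 to 0.0596).

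Immediate early genes had 0 of 13 members higher and 4 lower, with a median log2 difference of −0.33, and of −0.0790 without homo replicate 3. Fos fell from 110, 60.9 and 76.6 to 12.0, 18.0 and 12.6 CPM (5.68-fold), Fosb from 137, 73.9 and 97.0 to 10.9, 23.1 and 11.4 (6.51-fold) and Egr1 and Egr3, early targets of receptor signals, 2.59-fold and 7.14-fold. WT replicate 1 was the highest library for Fos and Fosb, and the 2 other WT libraries still lay above all homo libraries. Jun, Junb and Nr4a1 were not called (adjusted p from 0.635 to 0.877). Heat shock chaperone genes had 2 of 10 members higher, Hspa1a and Hspa1b, and for both homo replicate 3 was the highest library. Hspa1a rested on few counts, as given above, so that count is not read. The median log2 difference of the list was 0.42, and 0.0771 without homo replicate 3. Hspa1b stood at 16.1, 18.6 and 61.1 CPM in homo against 1.75, 1.61 and 2.25 in WT.

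In the Notch list 1 of 8 tested genes rose and 2 fell, beside 7.42% and 8.45% of all genes tested. Notch2, the receptor for marginal zone fate, fell from 213, 193 and 168 to 105, 99.1 and 69.4 CPM (2.07-fold) and Heyl 4.28-fold, while the feedback gene Nrarp rose from 18.4, 18.2 and 19.3 to 33.9, 35.1 and 25.7 CPM. The groups did not overlap in these genes, as in nearly all called genes. With library size as a covariate 3 genes rose and 2 fell. The Nrarp call held in 11 of 16 alternatives and was lost without WT replicate 1, WT replicate 2, homo replicate 1 or homo replicate 2.

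Markers of other cells that a sort could hold were mostly at a few CPM or less. Of the NK and innate lymphoid list 2 of 13 genes passed the filter on low counts, which a gene low in WT passes through the groups where it is high, so their count is not read. Prf1, the perforin gene, rose from 0.318, 1.25 and 0.321 to 13.7, 11.1 and 7.78 CPM and the NK receptor gene Klrb1c from 1.27, 2.14 and 1.93 to 10.3, 8.63 and 11.4. The sum of the list was 3.02 to 4.10 CPM in WT and 24.96 to 29.3 in homo. Gzma and Gzmb, with 0 counts in the WT libraries, reached at most 2.39 and 1.197 CPM in homo, and Ncr1 had 3 counts over the 9 pre-B libraries. The part of such cells in other results was not tested.

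The myeloid list summed to 56.8 to 59.1 CPM in WT and 119 to 153 in homo, most of it Itgam in both groups, with the values given above. Of its 3 tested genes Itgam rose and Lyz2 and Ly6c2 were not called (adjusted p = 0.298 and 0.472). Its defining granule genes Ctsg, Elane and Mpo had 0, 1 and 15 counts over the 9 libraries. Itga2b of the platelet lineage rose from 0.794, 0.535 and 0.803 to 6.78, 5.70 and 1.80 CPM, in the same libraries as the chemokine gene Ppbp, while Pf4 reached at most 1.74 CPM and the 4 globin genes had no counts. That list summed to 1.77 to 4.29 CPM in WT and to 12.5, 9.09 and 4.19 in homo replicates 1 to 3. Fn1, the fibronectin gene of the stromal list, rose from 6.51, 5.35 and 4.50 to 21.0, 19.3 and 18.0 CPM. The list summed to 21.5 to 24.98 in WT and 38.7 to 41.3 in homo, and most of that rise was Fn1.

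The T lineage list summed to 62.1 to 64.9 CPM in WT and 40.7 to 53.6 in homo, with Lck (1.71-fold lower, 10 of 16 alternatives) the called gene of 3 tested. Of 10 tested plasmacytoid dendritic genes Cox6a2 rose and Ly6d and Tlr9 fell, Tlr9 from 85.0, 75.3 and 80.3 to 20.2, 14.95 and 3.59 CPM. Siglech, which defines those cells, reached at most 1.22 CPM in any pre-B library. Of 14 stem and early progenitor genes 6 passed the filter on low counts. As in the NK list, a gene low in WT can pass through the group where it is high, so their count is not read. Kit (9.37, 7.67 and 7.06 to 12.5, 22.2 and 17.4 CPM), Flt3 (1.91, 1.25 and 1.45 to 3.47, 4.31 and 3.59 CPM) and Meis1 rose. Spn, which encodes CD43, fell from 158.1, 157 and 160 to 63.9, 87.5 and 74.8 CPM. CD43 was used as a negative gate in the sort. Cd34 and Procr had no counts. The call of Lck was lost without each WT replicate and without homo replicate 1. That of Kit (12 of 16) was lost without WT replicate 2, WT replicate 3 or homo replicate 2. That of Flt3 (9 of 15) was lost without each WT replicate and without homo replicates 1 and 2. That of Meis1 (9 of 16) was lost without each WT replicate and without homo replicates 2 and 3. All 4 genes kept their direction in each alternative, and calls over all genes also became fewer without any WT replicate.

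The difference between homo and WT was then compared with that at the pre-pro B stage, which shares no library with it, to ask whether the substitution acts alike before and after the transition. At that stage homo differed from WT in 2730 of 12188 genes (22.4%), 12% higher and 10.4% lower. Of 765 genes that were higher in homo pre-B cells and tested in pre-pro B cells, 222 were also called higher there, 57 were called lower and 486 were not called. Of 905 lower genes, 171 were called lower, 86 higher and 648 not. A test of the difference itself, the interaction of genotype and stage over all 18 libraries, called 1809 of 12440 genes (14.5%), 643 in the direction of a higher homo effect in pre-B cells (5.17%) and 1166 in the other (9.37%).

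The interaction was called for each of Prdm1 (log2 3.10 ± 0.40, adjusted p = 3.89e-05), Sema4g (5.67 ± 0.75, 4.96e-05), Polm (−2.66 ± 0.25, 1.47e-06) and Tnfrsf13c (−2.68 ± 0.27, 2.19e-06). In pre-pro B cells Prdm1 stood at 2.34 ± 0.81 CPM (SD, n = 3) in WT and 3.64 ± 1.08 in homo, and Sema4g at 1.67 ± 0.74 and 1.99 ± 0.21. Polm stood at 35.5 ± 3.07 and 29.3 ± 2.19 CPM and Tnfrsf13c at 34.2 ± 2.16 and 39.4 ± 5.22. None of the 4 was called at that stage (adjusted p from 0.155 to 0.750). The smallest adjusted p of the interaction belonged to Ctnna1, Zscan12, Asph, Slc36a1 and Rassf2.

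Ctnna1 was at 291 ± 4.35 CPM (SD, n = 3) in WT and 303 ± 5.04 in homo pre-pro B cells and differed 5.32-fold in pre-B cells (interaction log2 −2.49 ± 0.12, adjusted p = 1.81e-09). Zscan12, a zinc finger gene, was at 15.7 ± 0.82 and 16.5 ± 1.12 CPM at the earlier stage and fell from 18.4, 15.9 and 18.1 to 0.473, 0.616 and 0.599 in pre-B cells. Asph, a hydroxylase gene, was at 168 ± 3.84 and 141 ± 11.5 CPM at the earlier stage, and in pre-B cells rose from 16.1, 18.9 and 13.0 in WT to 112, 100.3 and 124 in homo (6.98-fold). Slc36a1, an amino acid transporter gene, fell from 58.0, 67.5 and 69.4 to 6.31, 9.25 and 10.8 CPM, and Rassf2, a Ras effector gene, from 155, 142 and 144 to 39.6, 44.2 and 34.1, each with no call in pre-pro B cells (adjusted p = 0.613 and 0.102). For these genes the WT and homo pre-B groups were separate by a wide margin.

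Prf1 and Klrb1c were called at both stages and their interaction was not called (adjusted p = 0.383 and 0.985). Prf1 stood at 3.02 ± 1.01 CPM in WT and 24.6 ± 8.15 in homo pre-pro B cells, and Klrb1c at 3.47 ± 1.27 and 18.6 ± 7.61. Of 49 named or listed genes called at both stages, 9 were called in opposite directions. Over all genes called at both stages, 57 higher and 86 lower genes were called in the opposite direction in pre-pro B cells. In the same direction there were 222 and 171. The interaction was called for each of the 9 genes (adjusted p from 2.89e-06 to 0.00707). It rests on the same libraries as the calls that picked these genes, so it adds no separate support. Xbp1, Fyn, Itgb1 and Sema7a, which rose in homo pre-B cells, fell in homo pre-pro B cells (log2 −0.49, −0.44, −0.17 and −0.30). Ccr7, Gfi1, Slamf7 and Vcl, which fell in pre-B cells, rose there (0.73, 0.74, 0.52 and 0.32).

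**Figure D5:**
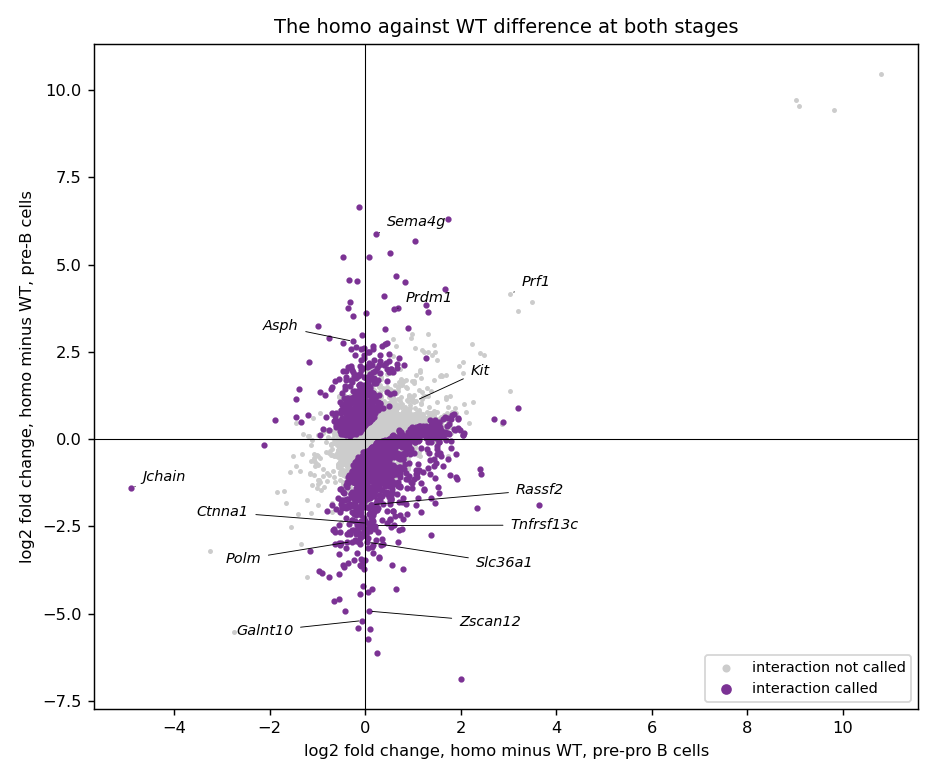
Log2 fold change between homo and WT in pre-B cells (vertical axis) against that in pre-pro B cells (horizontal axis) for the 11006 genes tested at both stages, with the 1712 of them whose interaction was called in purple. Sema4g, Prdm1, Asph, Polm, Ctnna1, Zscan12 and Galnt10 lie close to the vertical axis, while Prf1 lies far from 0 on both.

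The step from pre-pro B to pre-B cells was also fitted in the het libraries, where 68.1% of 12440 genes were called, 32.4% higher and 35.8% lower in pre-B cells. Het pre-B cells carry 1 copy of the substitution, so that step holds its effect as well and does not place the genes described here in normal development.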

How the data were processed

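The authors deposited raw read counts per gene symbol, 24459 genes a library. Entries that name no gene were left out: reads outside genes (29.85% to 40.15% of a library) and ambiguous reads (0.730% to 0.882%). Per the submitters' processing notes, MACS2 2.1.1, HISAT2 2.1.0, STAR 2.7.0 and mm10 were used, without roles. The counter and its strand setting stay unnamed: not given in the sources used here. The peak lists, broad peaks per the labels with 1 library each, give the authors' fold (a ratio of signal to background) and the deposited −log10 p-value and −log10 q-value, used as given. The minimum −log10 q-value in the 4 pre-B lists was 1.11 to 1.21. Coordinates count from 1.

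The tests used edgeR 4.0.16 under R 4.3.3, with low counts filtered by group (filterByExpr), TMM scaling, the robust quasi-likelihood F test, Benjamini-Hochberg adjustment over all genes tested, threshold 0.05. Homo and WT were contrasted in a fit of all 9 pre-B libraries (biological coefficient of variation 16.3%), and stages in a fit of all 18 (12.4%). The 9 pre-pro B libraries had 8.13%. The 16 alternatives, DESeq2 1.42.0 among them, are described under their effects. The contrast of homo and WT pre-B cells was also run on simulated counts, with an outcome not reported here. Libraries with Y-linked transcripts were those with at least 100 such counts. Folds against no counts use a floor of 3 counts over the group, and with 1 to 3 counts the pooled ratio has an exact 95% interval. Gene positions and promoters came from RefSeq tables of GRCm38.p6, the mm10 assembly, without a genome.

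The compared libraries and the gene lists were chosen with earlier results of these data known. Named genes were the 15 called genes with the largest fold in each direction (groups separate, at least 5 CPM), Prdm1, Sema4g, Polm, Tnfrsf13c, Ikzf1 to Ikzf5, called list members, uncalled members that define a list, and the 5 smallest interaction p-values. Genes called in opposite directions at both stages were singled out after their values were seen. Some called or defining list members are counted but not reported here by name.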

Additional observations from a re-analysis of the deposited data

Results flagged for a closer look

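The effect of the homozygous substitution differed between the stages, by the interaction test, for 1809 genes. It was more positive in pre-B than in pre-pro B cells by log2 3.10 for Prdm1, 5.67 for Sema4g and 3.04 for Asph. It was more negative in pre-B cells for Polm (log2 −2.66), Tnfrsf13c (−2.68), Ctnna1 (−2.49), Zscan12 (−5.02), Slc36a1 (−3.03) and Rassf2 (−2.01). None of these 9 genes was called between homo and WT in pre-pro B cells.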

How the results depend on the processing

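The count of 1811 genes called between homo and WT pre-B cells ran from 1055 to 2097 when single WT or homo libraries were left out. It was 3456 without the 2 shallowest pre-B libraries (homo replicate 3 and het replicate 2) and also 3456 with library size as a covariate, 1679 and 1697 of them higher. Other settings gave 1815 (RLE size factors), 2232 (DESeq2), 1736 (no filter on low counts), 1695 (at least 20 counts in 3 libraries), 1668 (homo and WT libraries alone), 1381 (a term for Y-linked transcripts) and 2412 (libraries without Y-linked transcripts alone, an alternative chosen after seeing the data, with 1 homo library assumed to vary like the other groups). With the replicate block the count was 1125. Same-numbered WT and homo libraries had correlations of 0.160, −0.0294 and 0.136 in their deviations from the group means, so the numbers were not taken to pair the samples. The interaction count of 1809 ran from 1349 to 2155 when single libraries were left out, and was 1772 with RLE size factors, 2189 with DESeq2, 1933 with library size as a covariate and 1595 with the replicate block; it was not run with a term for Y-linked transcripts. Of the 139 called genes named by rule, 103 kept their call in every alternative that tested them, and 1998 of 2214 values did. The cause of the lost calls was not tested. No call reversed. The median log2 difference of 7 of 27 lists changed sign in at least 1 of 4 settings (without homo replicate 3, library size as a covariate and both settings on Y-linked transcripts): Ikaros family, B lineage transcription factors, V(D)J recombination and G1 control in all 4, and the plasma cell programme (−0.0300), pre-B markers (−0.0513) and T lineage markers (0.0376) in 1 each.

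Shares of genes with an Ikaros peak moved with the distance and the threshold, and in each of these settings the called genes had a larger share than all genes tested, which did not hold for WT Aiolos peaks (0.520% of lower genes against 0.966% of all) or for homo Ikaros peaks at start sites (3.5% of higher genes against 5.9%). For genes called higher, called lower and all tested the WT Ikaros list gave 14.2%, 11.7% and 8.02% with overlap of the gene alone, 38.1%, 36.1% and 30.8% within 50 kb, and 17.1%, 15.7% and 11.0% with a −log10 q of at least 5. The homo list gave 27.8%, 27.1% and 18.4%, then 62.8%, 64.4% and 56.8%, and 27.5%, 28.5% and 20.0%. Homo replicate 3 held 1888871 counts, which limits precision for genes of a few CPM.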
